A study of Mus musculus with 35 samples.

Results

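Epiblast-like cells (EpiLCs) are the culture model of the mouse epiblast shortly after implantation, and here they were compared gene by gene with the E5.5 epiblast itself. The comparison used 6 of the 27 bulk RNA-seq libraries in a series of 35 samples, 3 of EpiLCs and 3 of E5.5 epiblasts. The EpiLCs were wild-type mouse embryonic stem cells (ESCs) grown for 48 h with FGF2 and Activin A, and the labels do not say whether the 3 libraries came from separate cultures. The E5.5 epiblasts were untreated and wild-type, and the labels give their strain as CD-1 and embryo sex as male/female, whereas the study's methods name matings of CD1 or Pdgfrα:H2B-GFP mice for the epiblasts and leave the sex of embryos undetermined. Several epiblasts were pooled for each library after visceral endoderm and extra-embryonic ectoderm had been taken off by hand. The rest of the series holds epiblast stem cells (EpiSCs) in flat and Matrigel culture, epiblasts of other days, single-cell RNA and DNA methylation samples.

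The groups differed in more than their origin. The EpiLC kit captured poly-A RNA and used 8 amplification cycles, and the E5.5 kit took total RNA, removed ribosomal cDNA and used 13 cycles, and the ESC line behind the EpiLCs is not named in the sources used here. Kit, genetic background and culture therefore cannot be told apart in this comparison. As a reference, the same difference was computed for a second pair made with the same 2 kits and no shared library, the 9 EpiSC libraries (3 of EpiSCs in flat culture, 3 of ESC-derived and 3 of embryo-derived EpiSCs in Matrigel) against the 3 of the E6.5 epiblast, and it is given beside the results. Per the study's methods, flat EpiSCs were kept in FGF2 and Activin A. The medium of both Matrigel groups also held the Wnt inhibitor XAV939 and the BMP inhibitor Noggin, so the cultures of the 2 pairs were treated differently.

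Pluripotency passes from a naive state, held by ESCs and the pre-implantation epiblast, through a formative state at E5.5 to E6.5, to a primed state in which cells answer signals for the germ layers. Naive genes such as Zfp42, Esrrb and Klf4 are silenced on the way, while Fgf5, Otx2, Pou3f1 and the de novo DNA methyltransferases come on. FGF and Activin are supplied to EpiLCs in the medium. In the embryo FGF and Nodal, a ligand that shares receptors with Activin, are made by the epiblast and its neighbours. Wnt and BMP signals made there as well start the primitive streak.

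The 10844 genes tested, of 54446 in the table, were autosomal, protein-coding and above 2 in TPM (transcript abundance per length, scaled to a fixed total) in at least 3 of the 6 libraries, without clustered histone and mitochondrial genes. TPM were rescaled by median-of-ratios factors and tested as log2(TPM + 1) with limma, and calls required an adjusted p under 0.05 together with a log2 difference beyond 1 in either direction. On this scale 1195 genes (11.0%) were higher and 1231 (11.4%) lower in EpiLCs. At an adjusted p below 0.05 alone 7151 genes differed, and the 3 EpiLC libraries did not overlap the 3 E5.5 libraries for 72.1% of all genes tested. Of the called genes, 321 of those higher passed the TPM filter only through the EpiLC libraries and 265 of those lower only through the E5.5 libraries, so those genes had to differ. TPM keep no record of depth, so no counting interval is given. Replicate libraries differed by a median of 0.17 to 0.22 log2 units among EpiLCs and 0.11 to 0.12 among E5.5 epiblasts, and across genes they correlated with r of 0.983 to 0.992. Without rescaling, the median gene stood 0.44 log2 units higher in EpiLCs and 79.9% of the called genes were higher, against 49.3% with it. Shares of total TPM differed widely by kit, with clustered histone genes at 0.0657% to 0.0857% in EpiLCs and 3.80% to 4.35% in E5.5 epiblasts. The difference also followed gene length, from a median of 0.26 in the 2712 genes with the shortest exons to -0.35 in the 2709 with the longest, where EpiSCs against E6.5 ran from 0.09 to -0.21.

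In EpiSCs against E6.5 epiblasts 7.80% of the same genes were higher and 8.77% lower. Of the 1195 genes higher in EpiLCs 429 (35.9%) were also higher in that pair and 49 lower, and of the 1231 lower in EpiLCs 558 (45.3%) were also lower and 12 higher. The difference between the 2 differences, tested in a single fit, was called upward for 7.03% of genes and downward for 6.27%, and it was upward for 436 of the genes higher in EpiLCs and downward for 349 of those lower. Across genes the 2 differences correlated with r = 0.629, a description only, since genes are not independent and the kits are shared. Across genes, EpiLC libraries correlated more with E5.5 (r of 0.853 to 0.874, median 0.865) than with E6.5 (median 0.848), E4.5 (0.826), E7.5 (0.796) and E3.5 (0.754), although the ranges for E5.5 and E6.5 overlapped. These values, from TPM as deposited, describe libraries that share genes and, within culture or embryo, a kit. From the side of the embryo, the E5.5 libraries correlated with flat EpiSCs, ESC-derived EpiSCs and embryo-derived EpiSCs at medians of 0.880, 0.884 and 0.876, each above the median with EpiLCs. Genes had been kept by their TPM in the EpiLC and E5.5 libraries only. Genes high in EpiLCs alone were therefore counted and genes high in EpiSCs alone were left out, so this order does not rank the cultures.

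**Figure D1:**
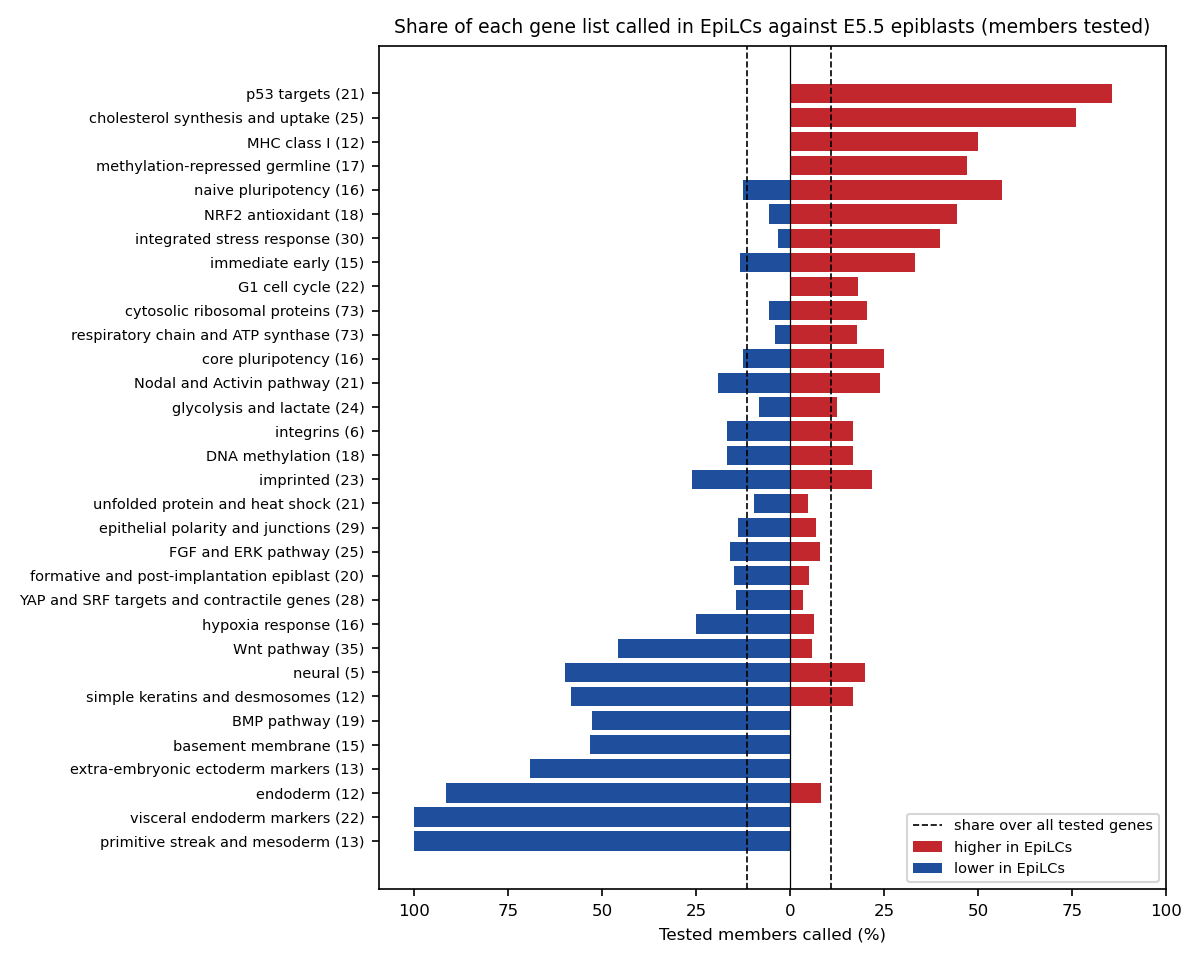
Share of the tested members of each gene list that were called higher (red, right) or lower (blue, left) in EpiLCs against E5.5 epiblasts, in percent, with the number of members tested in parentheses. Dashed lines mark the shares over all genes tested, 11.0% and 11.4%, and lists with fewer than 5 tested members are left out. The p53 targets and the cholesterol genes lie at the top with no member lower, and the primitive streak genes and visceral endoderm markers at the bottom with every tested member lower.

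The identity of the samples was checked first on markers of the epiblast and of its neighbours. Both groups expressed Pou5f1, Sox2, Nanog, Utf1, Otx2, Fgf5 and Dnmt3b in every library, with means from 27.9 to 2570 rescaled TPM. The E5.5 libraries also held visceral endoderm transcripts. The 24 markers of that tissue summed to 1829, 1804 and 1823 rescaled TPM in the E5.5 libraries and to 34.7, 38.0 and 31.7 in the EpiLC libraries, where 7 of them were listed at 0. Apoa1, an apolipoprotein secreted by visceral endoderm, stood at 421, 435 and 412 rescaled TPM in E5.5 epiblasts and at 0.33, 0 and 0 in EpiLCs. Afp, alpha-fetoprotein, was at 91.7, 96.1 and 98.0 in E5.5 and at most 0.0622 in EpiLCs, and Ttr, the thyroxine carrier transthyretin, at 97.2, 98.3 and 104 in E5.5 and listed at 0 in every EpiLC library. All 22 markers that passed the filter were lower in EpiLCs, 19 of them having passed through the E5.5 libraries only. As deposited, the 24 markers summed to 1506 to 1567 TPM in E5.5 epiblasts and 36.5 to 44.1 in EpiLCs. The sums were 2492 to 2609 TPM in E6.5 epiblasts and 32.3 to 244 TPM in the EpiSC libraries. The reference pair thus carried an imbalance in the same direction, but not of the same size. The difference of the differences was upward for 7 of the 22 tested markers and downward for 3.

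Other cell types left smaller traces. The 17 extra-embryonic ectoderm markers summed to 187 to 197 rescaled TPM in E5.5 epiblasts and 47.0 to 55.5 in EpiLCs, and 91.4 of the former came from Eomes, which the epiblast and visceral endoderm express as well. Elf5, which is largely limited to trophoblast, was at 6.14, 3.31 and 4.51 in E5.5 and at most 0.145 in EpiLCs, and 9 of the 13 tested markers were lower in EpiLCs. The 12 fibroblast and decidua markers summed to 33.4 to 43.8 in EpiLCs and 10.9 to 12.7 in E5.5, led in EpiLCs by Dcn (decorin) and Thy1, and 2 of the 12 were listed at 0 in all EpiLC libraries. The 13 blood and immune markers summed to 11.7 to 17.5 in EpiLCs and 1.11 to 6.51 in E5.5, with all the tested ones (Cd68, Cd74 and Laptm5) higher in EpiLCs. In these bulk samples fewer cells of a type and less RNA per cell cannot be told apart.

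Of the 16 core pluripotency genes, all of which were tested, 4 were higher and 2 lower in EpiLCs, and the median difference was 0.26 against 0.00 over all genes. Pou5f1, the central pluripotency factor Oct4, was at 1069, 1300 and 1174 rescaled TPM in EpiLCs and 788, 801 and 840 in E5.5 epiblasts. The libraries did not overlap, but the difference of 0.54 ± 0.11 (log2, SE, n = 3 per group, adjusted p = 0.0023 by limma) stayed under the limit of 1, which it passed on TPM as deposited (1.01). Sox2, its partner factor, was likewise above E5.5 without being called, at 80.9, 63.3 and 109 against 45.5, 39.9 and 47.0, and was called without EpiLC replicate 2 (1.08) or on TPM as deposited (1.35). Nanog was at 64.3, 62.8 and 55.3 in EpiLCs and 31.1, 29.1 and 23.6 in E5.5, a called rise of 1.10 ± 0.13, and without E5.5 replicate 3 it fell to 0.99 and was no longer called. Tdgf1, the Nodal co-receptor Cripto, rose by 1.57. Dppa2 and Dppa4, paired chromatin factors that prime developmental promoters in pluripotent cells, rose most. Dppa2 went from 6.38, 7.22 and 6.54 in E5.5 to 96.1, 101 and 108 in EpiLCs (log2 difference 3.73) and Dppa4 from 31.8, 28.5 and 30.7 to 101, 129 and 87.2 (1.75). In the reference pair both ran the other way, lower in EpiSCs than in E6.5 epiblasts by 1.19 and 3.14. Sall4 (-1.26) and the let-7 regulator Lin28b (-1.12) were lower in EpiLCs, and neither was called on TPM as deposited (-0.79 and -0.66), nor Lin28b without EpiLC replicate 2 (-0.96).

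The naive genes were divided. Of 20 listed, 16 passed the filter, 9 were higher in EpiLCs (56.25%) and 2 lower (12.5%), with a median of 1.20. Over all genes 11.0% were higher and 11.4% lower. Dppa5a, an RNA-binding protein of ESCs, was at 834, 1432 and 1146 rescaled TPM in EpiLCs and 43.0, 37.7 and 37.8 in E5.5, a difference of 4.78 ± 0.18 (adjusted p = 2.1e-07). It has near-identical processed copies in the genome, so its level is uncertain. Zfp42 (Rex1), a zinc finger gene used as a naive reporter, was at 28.0, 33.7 and 30.8 in EpiLCs and 8.17, 8.55 and 8.81 in E5.5 (1.74 ± 0.11). Fgf4, an autocrine signal of naive and early epiblast cells, was at 73.1, 88.1 and 87.5 against 15.2, 14.3 and 14.0 (2.43). Gbx2, a homeobox target of LIF signalling, and Fbxo15, an ESC F-box gene, rose from at most 2.10 and 1.94 in any E5.5 library to at least 13.2 and 7.43 in every EpiLC library. Pecam1, a surface marker of naive cells, rose by 2.00, and Spp1, Sox15 and Nanog were the other members called higher. Of the 16 tested, 4 had passed the filter through EpiLCs only.

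The transcription factors of the list were divided as well, with Zfp42, Gbx2, Sox15 and Nanog called higher, and Esrrb, Klf4, Tfcp2l1 and Tbx3 not. Esrrb, an orphan nuclear receptor, was at 7.22, 9.27 and 10.7 rescaled TPM in EpiLCs and 11.5, 7.59 and 9.64 in E5.5, with overlapping libraries and a difference of -0.07. Dppa3 (Stella), a regulator of DNA methylation in the zygote and germ cells, differed by -0.14, also with overlap. Klf4 was low in both groups, at 1.58 to 1.89 in EpiLCs and 4.01 to 4.48 in E5.5, and its difference of -0.94 passed the limit only with a pseudocount of 0.1 (-1.24). Tfcp2l1 was lower by a margin (-1.02) that was lost without EpiLC replicate 1 (-0.96), without E5.5 replicate 3 (-0.98) or on TPM as deposited (-0.68). Tbx3 was lower, at 0.25, 0.207 and 0.523 in EpiLCs and 13.8, 14.2 and 13.2 in E5.5 (-3.48). Tbx3 is also expressed in visceral endoderm, whose markers were high in the same libraries, and the part of that tissue was not tested. The other 4 members were under the filter and were not tested. Of these, Nr5a2, at 1.53, 2.60 and 3.87 in EpiLCs and at most 0.17 in E5.5, Klf2, at 1.48, 1.83 and 2.92 against at most 0.783, and Tcl1, at 1.39, 2.00 and 1.20 and listed at 0 in every E5.5 library, stood above E5.5 in each EpiLC library, and Prdm14 was at most 0.0654 in any library.

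**Figure D2:**
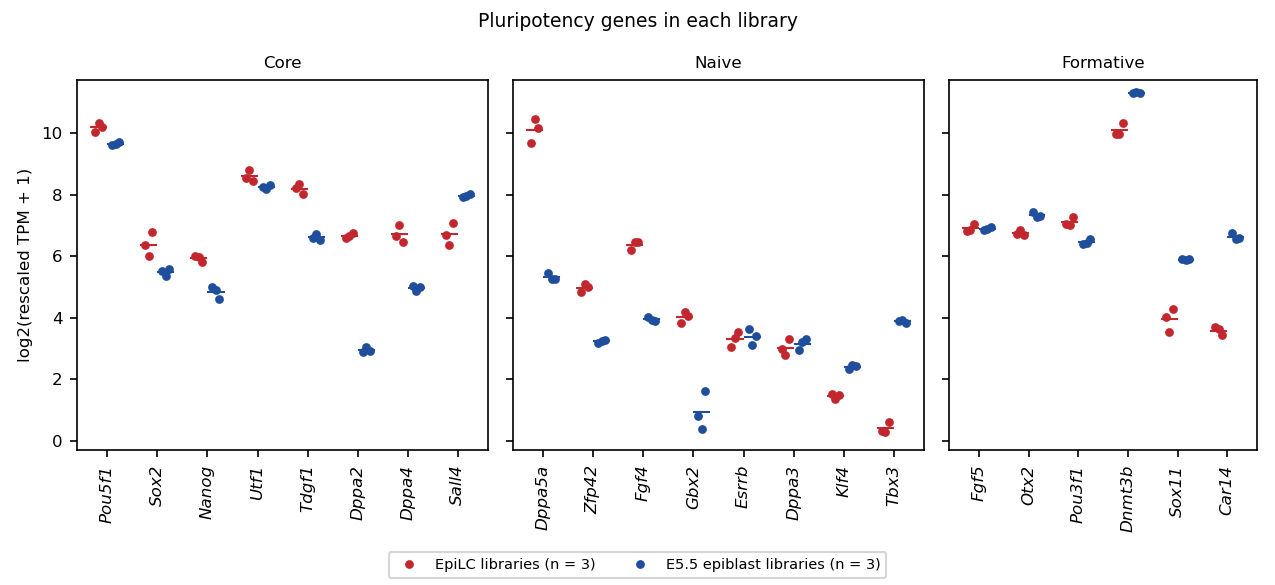
Expression of core, naive and formative pluripotency genes as log2(rescaled TPM + 1) in the 3 EpiLC libraries (red) and the 3 E5.5 epiblast libraries (blue), with a bar at the group mean. Dppa2, Dppa4, Dppa5a, Zfp42, Fgf4 and Gbx2 stand higher in EpiLCs, the libraries of Esrrb, Dppa3 and Fgf5 overlap between the groups, and Tbx3, Dnmt3b, Sox11 and Car14 stand lower.

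Of the 20 formative genes listed, all tested, 1 was higher (5.0%) and 3 were lower (15.0%), beside 11.0% and 11.4% over all genes. The libraries did not overlap for 13 of the 20, beside 72.1% of all genes tested. The list had a median of -0.31, which became 0.16 on TPM as deposited. Fgf5, the marker that defines the early post-implantation epiblast, was at 112, 116 and 132 rescaled TPM in EpiLCs and 114, 119 and 124 in E5.5, a difference of 0.01 ± 0.11. Otx2, a homeobox factor that moves enhancers from the naive to the formative set, was at 106, 116 and 102 against 172, 153 and 160 (-0.58), and Pou3f1 (Oct6), its partner, at 132, 129 and 156 against 84.5, 84.8 and 94.6 (0.65). In both genes the libraries stood apart, in opposite directions, without reaching the limit of 1, which Pou3f1 passed on TPM as deposited (1.12). Sox11 fell by 1.94. Car14, a membrane-bound carbonic anhydrase, fell by 3.06, from 107, 94.7 and 96.2 in E5.5 to 11.96, 11.3 and 9.88 in EpiLCs. Enpp3, an ectonucleotidase, was the member that rose, by 1.94, and it was also higher in EpiSCs against E6.5 (3.51).

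The DNA methylation machinery is led at this stage by Dnmt3a and Dnmt3b, which set new methylation, with the catalytically inactive Dnmt3l as their cofactor. Of 18 genes, all tested, 3 were higher and 3 lower, 16.7% each, beside 11.0% and 11.4% over all genes. Dnmt3b was among the most abundant regulators in both groups, at 1009, 1012 and 1308 rescaled TPM in EpiLCs and 2556, 2593 and 2560 in E5.5. Its difference of -1.22 ± 0.13 (adjusted p = 4.5e-05) became -0.75, and was not called, on TPM as deposited. Dnmt3a was at 154, 165 and 501 in EpiLCs, where 1 library stood far above the other two, and 294, 291 and 243 in E5.5 (-0.23). Dnmt3l was at 85.5, 154 and 156 in EpiLCs and 19.5, 18.8 and 21.2 in E5.5, higher by 2.62 ± 0.22, while EpiSCs stood 3.74 below E6.5. Of the TET enzymes, which oxidise methylcytosine, Tet3 (-2.03) and Tet1 (-1.08) were lower, Tet1 no longer without EpiLC replicate 2 (-0.94) or on TPM as deposited (-0.61). The maintenance genes Dnmt1 (-0.45) and Uhrf1 (-0.01) were not called. Gadd45a, linked to DNA repair and demethylation, rose by 2.03, and Zfp57, which protects methylation at imprinted loci, by 1.04, a call lost without EpiLC replicate 2 (0.87).

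Promoters of a set of germline genes are kept silent by DNA methylation once the epiblast has been remethylated. Windows of 6 such promoters are printed here because 8 of the 17 tested genes of the set were higher in EpiLCs and the motif they share holds a CpG. They come from RefSeq (GRCm38.p6), 5′ to 3′ on the gene's strand, with CACGTG, a palindromic E-box, in capitals. The first 4 belong to genes higher in EpiLCs and the last 2 to genes not called.
Hormad1, chr3:95559595-95559650, + strand: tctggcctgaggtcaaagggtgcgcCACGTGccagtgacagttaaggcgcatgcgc
Mael, chr1:166238937-166238992, - strand: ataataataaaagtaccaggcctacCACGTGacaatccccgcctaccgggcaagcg
Stk31, chr6:49395459-49395514, + strand: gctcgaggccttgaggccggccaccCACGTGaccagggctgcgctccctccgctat
Fkbp6, chr5:135350051-135350106, - strand: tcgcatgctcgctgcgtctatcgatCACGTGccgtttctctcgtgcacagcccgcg
Ddx4, chr13:112652309-112652364, - strand: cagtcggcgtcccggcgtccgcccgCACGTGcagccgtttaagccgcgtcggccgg
Sycp1, chr3:102936164-102936219, - strand: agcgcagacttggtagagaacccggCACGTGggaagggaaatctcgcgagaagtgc
CACGTG, the same on both strands, was found between 250 bases before and 50 after an annotated start of 10 of the 17 members, 58.8%, and of 1043 of the 8560 tested genes with a promoter in the table, 12.2%. It was present in 4 of the 8 members higher in EpiLCs and in 6 of the 9 members not called. The match is a description of these letters and does not show a bound site.

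Of the 23 germline genes listed, 17 were tested, 8 were higher in EpiLCs (47.1%, beside 11.0% over all genes) and none lower, with a median of 0.82. By limma no member was called lower, the lowest being at -0.69, 1 was below 0 at an unadjusted p under 0.05, and 3 of the 17 had passed the filter through EpiLCs only. Hormad1, a meiotic chromosome axis protein, was at 12.02, 23.7 and 19.0 rescaled TPM in EpiLCs and 2.15, 1.96 and 2.53 in E5.5, a difference of 2.54 ± 0.21 (adjusted p = 1.4e-05). Mael, of the piRNA pathway, was at 19.4, 29.8 and 28.1 against 4.18, 5.34 and 4.51 (2.22). Dazl, an RNA-binding protein of germ cells, was at 9.46, 10.7 and 13.1 against 1.62, 1.41 and 2.10 (2.15). These levels were low beside the pluripotency genes, but no EpiLC library overlapped an E5.5 library. The other called members were Stk31 (2.14), Fkbp6 (1.50), Sohlh2 (1.49), Zfp57 and Rpl10l (2.15), a retrocopy of the ribosomal protein gene Rpl10 whose reads may be shared with its parent. Ddx4 (-0.07), the germ cell helicase Vasa, and Sycp3 (0.13), of the synaptonemal complex, were not called, with Ddx4 at 11.1, 8.11 and 8.90 rescaled TPM in EpiLCs and 9.29, 10.01 and 10.03 in E5.5, and both had overlapping libraries. In EpiSCs against E6.5 the list ran the other way, with 9 of the same 17 lower and 1 higher, and the difference of the differences was upward for 14 of the 17.

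Nodal and Activin signal through Acvr2 and Acvr1b receptors with Tdgf1 as co-receptor, through Smad2, Smad3 and Foxh1, and are fed back on by the Lefty proteins. Of 21 tested genes of this pathway 5 were higher (23.8%) and 4 lower (19.0%), beside 11.0% and 11.4% over all genes. The feedback inhibitor Lefty1 was at 143, 98.1 and 173 rescaled TPM in EpiLCs and 8.30, 9.97 and 8.37 in E5.5 (3.78 ± 0.19, adjusted p = 1.0e-06), as large a difference as in EpiSCs against E6.5 (3.83). Lefty2 was at 35.7, 33.2 and 32.4 against 5.80, 4.46 and 6.22 (2.43). Gdf3, a ligand of the family, was at 61.5, 59.0 and 40.9 against 3.94, 3.14 and 3.36 (3.59), while in the reference pair it was lower in the culture (-1.15). Nodal itself was at 39.0, 38.6 and 50.1 against 19.1, 19.5 and 20.3 (1.07), and without EpiLC replicate 3 the difference was 0.95 and not called. The nuclear partner Foxh1 (0.44) and the transducers Smad2 and Smad3 were not called. The receptor Acvr2b (-2.05) and the inhibitory Smad7 (-1.51) were lower. Cer1, a secreted inhibitor of Nodal, BMP and Wnt made by the anterior visceral endoderm, was at 33.7, 31.2 and 31.6 in E5.5 and at 0, 0 and 0.028 in EpiLCs, beside visceral endoderm marker sums of at least 1804 and at most 38.0, and the part of that tissue was not tested.

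Of 25 tested genes of the FGF and ERK list 2 were higher and 4 lower, shares of 8.0% and 16.0% beside 11.0% and 11.4% over all genes, and 3 of the 25 had passed the filter through E5.5 only. Dusp6, a phosphatase induced by ERK that limits it, was at 107, 108 and 87.7 rescaled TPM in EpiLCs and 59.0, 55.3 and 60.6 in E5.5 (0.78, or 1.24 and called on TPM as deposited). Spry2 differed by -0.21, and Spry4, at 30.9, 24.1 and 28.8 against 28.5, 27.4 and 27.5, overlapped between the groups. Spry1 was at 22.6, 24.0 and 0 in EpiLCs and 27.1, 26.9 and 30.8 in E5.5. The 0 in the EpiLC library numbered 3, beside values of 22.6 and 24.0, may be a failed estimate. Egr1, an immediate early gene, varied among EpiLC libraries, at 16.0, 3.83 and 15.6 against 3.15, 2.66 and 2.77 in E5.5, and its rise of 1.53 was no longer called without EpiLC replicate 1 (1.21). The receptor Fgfr1 was not called (-0.40). The ligands parted. Fgf4 was higher, as given above, and Fgf8, a signal of the early streak, was at 13.1, 11.1 and 18.5 in EpiLCs and 127, 134 and 122 in E5.5 (-3.11 ± 0.17, adjusted p = 1.4e-06).

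BMP and Wnt signals meet the embryonic epiblast from the extra-embryonic ectoderm, the visceral endoderm and the epiblast's own posterior side. Of 19 tested BMP genes 10 were lower in EpiLCs (52.6%) and none higher by limma (2 above 0 at an unadjusted p under 0.05). Over all genes 11.4% were lower and 11.0% higher. Of the 19, 6 had passed the filter through E5.5 only. Of the 10, 8 were also lower in EpiSCs against E6.5. The direct BMP targets Id1, at 3.75, 4.01 and 7.53 rescaled TPM in EpiLCs and 38.3, 32.0 and 40.1 in E5.5 (-2.68 ± 0.22), and Id3, at 14.1, 11.96 and 10.2 against 51.0, 47.2 and 58.2 (-2.03), were well below every E5.5 library. The ligand Bmp2 was at most 0.0774 in EpiLCs and 8.03, 9.68 and 8.59 in E5.5 (-3.24), and visceral endoderm expresses it too. Bmp4 (-0.38), the ligand of the extra-embryonic ectoderm, and the receptor Bmpr1a (0.46) were not called. Of 35 tested Wnt genes 16 were lower (45.7%) and 2 higher (5.71%), beside the same 11.4% and 11.0% over all genes. Of the 35, 7 had passed the filter through E5.5 only and 2 through EpiLCs only. Of the 16, 8 were also lower in EpiSCs against E6.5, and the 2 were also higher there. The Matrigel EpiSCs of that pair were grown with BMP and Wnt inhibitors, whose part in its BMP and Wnt differences was not tested. Axin2, a feedback inhibitor induced in most cells that receive a Wnt signal, was at 5.67, 5.37 and 6.93 against 29.0, 28.6 and 26.8 (-2.06 ± 0.12), and Sp5, another direct target, at 0.101, 0.0625 and 0.268 against 7.78, 8.22 and 7.51 (-2.95). Tcf7l2, a nuclear effector, fell by 3.31 and Wls, the carrier that Wnt ligands need to leave the cell, by 2.43. Sfrp5 and Dkk1, inhibitors made by the anterior visceral endoderm, were lower as well, beside marker sums of that tissue of at least 1804 in E5.5 and at most 38.0 in EpiLCs, and its part in the Wnt and BMP differences was not tested. Ctnnb1, beta-catenin, was not called (0.29), and the 2 higher members were the R-spondin receptor Lgr4 (1.33) and the secreted inhibitor Sfrp4 (2.54).

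Of 20 primitive streak genes listed, 13 passed the filter, 10 of them through the E5.5 libraries only, so that those 10 had to differ. The 13 were lower in EpiLCs, with differences from -4.31 to -1.83, while none of the 13 was above 0 at an unadjusted p under 0.05 by limma. Of the same 13, 11 were also lower in EpiSCs against E6.5, with a list median of -2.93 there and -2.79 in EpiLCs against E5.5. The Matrigel EpiSCs had Wnt and BMP inhibitors in their medium, and the part of these was not tested. Eomes, a T-box factor of streak, definitive endoderm and extra-embryonic tissue, was at 3.82, 2.75 and 4.61 rescaled TPM in EpiLCs and 94.3, 86.0 and 94.0 in E5.5 (-4.31 ± 0.15, adjusted p = 1.3e-07). The T-box factor T (Brachyury), the founding streak marker, was at 1.19, 0.479 and 1.11 against 5.73, 5.10 and 6.91 (-1.86), and Mixl1 at 1.11, 0.414 and 1.09 against 11.6, 12.1 and 11.4 (-2.79). Wnt3, the ligand that starts the streak, was lower by 1.83. Gsc and Lhx1, factors of the organiser and of the anterior visceral endoderm, were at most 0.336 and 0.259 in EpiLCs and at 11.8 to 16.3 and 20.1 to 22.8 in E5.5. The 7 members under the filter were not tested and did not all stand the same way, with Mesp1 at most 0.0803 in EpiLCs and at 1.16, 1.31 and 1.15 in E5.5, and Mesp2 at 0.61, 0.666 and 0.572 in EpiLCs and at most 0.24 in E5.5.

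Of 12 tested endoderm genes 11 were lower (91.7%, beside 11.4% over all genes), 10 of the 12 having passed through E5.5 only. Of the 11, 6 were also lower in EpiSCs against E6.5, with a list median of -1.38 there and -3.36 in EpiLCs against E5.5. Foxa2 was at 0.589, 0.483 and 0.523 rescaled TPM in EpiLCs and 16.8, 17.0 and 17.1 in E5.5 (-3.55), Sox17 at 0.0666, 0.226 and 0.26 against 17.1, 15.8 and 15.6 (-3.86), and Gata4 at 0.488, 0.197 and 0.209 against 32.8, 35.7 and 36.5 (-4.80). These factors, like Cer1, Gsc, Lhx1 and Eomes, are shared with the visceral endoderm, whose 24 markers summed to at least 1804 in the same E5.5 libraries and at most 38.0 in EpiLCs, and how much of their level comes from that tissue was not tested. Trh, the precursor of thyrotropin-releasing hormone, was the only tested member higher in EpiLCs, at 283, 170 and 186 against 42.9, 39.8 and 38.0 (2.34). Of 12 neural genes only 5 were tested and 3 were lower, led by Hesx1 (-2.09), a homeobox gene of the anterior neural plate, and 1 was higher, Ncam1 (1.09), a call lost without EpiLC replicate 3 (0.94) or E5.5 replicate 2 (0.95). Among the 7 under the filter, which were not tested, Sox1 was at 1.33, 1.34 and 0.657 in EpiLCs and at most 0.174 in E5.5, and Pax6 at 0.889, 0.497 and 1.40 against at most 0.326, so both stood above E5.5 in every EpiLC library.

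**Figure D3:**
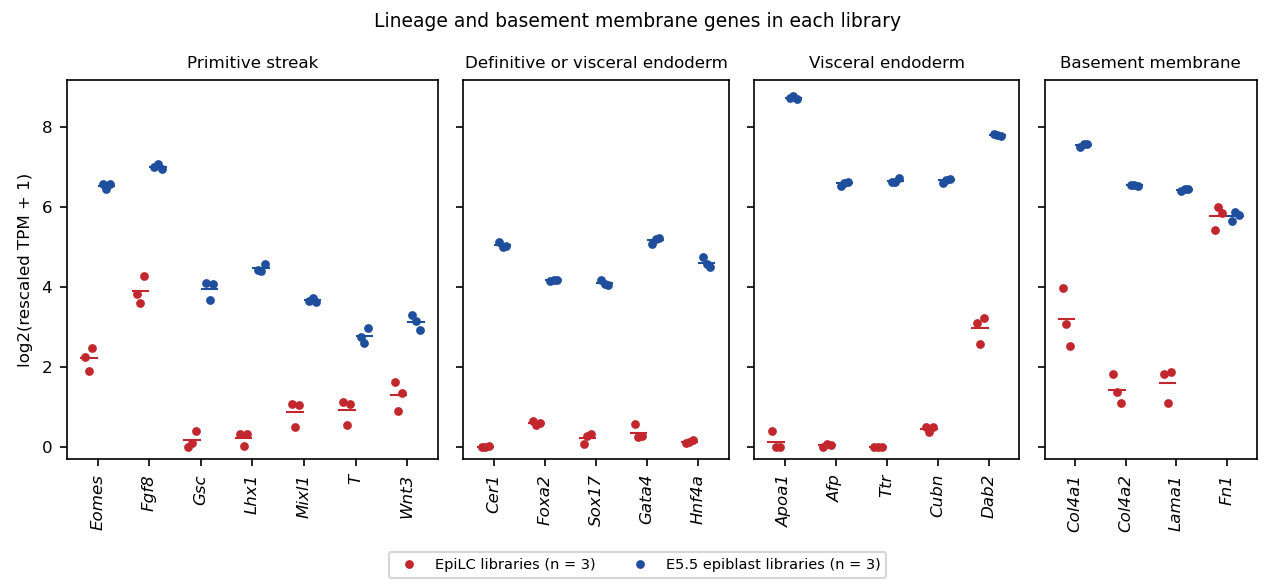
Expression of streak, endoderm, visceral endoderm and basement membrane genes as log2(rescaled TPM + 1) in the 3 EpiLC libraries (red) and the 3 E5.5 epiblast libraries (blue), with a bar at the group mean. The E5.5 libraries stand above the EpiLC libraries in every gene drawn but Fn1, in which they overlap, and the visceral endoderm genes Apoa1, Afp and Ttr are at or near 0 in EpiLCs.

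The epiblast rests on a basement membrane that it and the visceral endoderm build. Of 15 tested genes of this structure 8 were lower in EpiLCs (53.3%, beside 11.4% over all genes) and none higher by limma (3 above 0 at an unadjusted p under 0.05). Of the 8, 5 were also lower in EpiSCs against E6.5. The collagen IV chains Col4a1, at 14.7, 7.495 and 4.79 rescaled TPM in EpiLCs against 180, 188 and 189 in E5.5 (-4.35), and Col4a2, at 2.54, 1.59 and 1.15 against 93.3, 92.7 and 91.6 (-5.11 ± 0.17, adjusted p = 9.7e-08), fell most, with Lama1, the alpha chain of embryonic laminin, at 2.59, 1.16 and 2.65 against 83.4, 85.6 and 86.5 (-4.82). The beta chain Lamb1 was lower by 1.32, and not called on TPM as deposited (-0.86). Fn1, fibronectin, was at 42.0, 63.4 and 56.8 against 49.3, 57.2 and 55.1, a difference of -0.01. The visceral endoderm markers moved with these genes, at sums of 1804 to 1829 in E5.5 and 31.7 to 38.0 in EpiLCs, and their part was not tested. Of the 6 tested integrins, Itga3 was higher (1.14) and Itgb5 lower (-1.28, or -0.83 on TPM as deposited). Each made 16.7% of the list, beside 11.0% higher and 11.4% lower over all genes.

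Of 29 tested genes of polarity and junctions 2 were higher (6.90%) and 4 lower (13.8%), beside 11.0% and 11.4% over all genes. The libraries did not overlap for 24 of the 29, beside 72.1% of all genes tested. Cdh1, E-cadherin, was at 464, 416 and 416 rescaled TPM in EpiLCs and 321, 316 and 310 in E5.5 (0.45). Podxl, the apical sialomucin that lines the pro-amniotic cavity, was at 26.4, 28.0 and 28.9 against 180, 186 and 180 (-2.67), and the Crumbs partner Patj was lower by 2.06. Epcam was not called (-0.30), and the polarity adaptor Pard6a was higher by 1.14, a call lost without EpiLC replicate 2 (0.93). Of 12 simple keratin and desmosome genes 7 were lower (58.3%) and 2 higher (16.7%), beside 11.4% and 11.0% over all genes. Krt8 was at 13.3, 14.3 and 10.2 against 138, 134 and 145 (-3.38), Krt18 at 28.7, 39.2 and 25.6 against 246, 271 and 255 (-3.03), and Dsp, desmoplakin, was lower by 2.75. In EpiSCs against E6.5 no member of this list was lower, and Krt8 differed by -0.93. In the E5.5 libraries the visceral endoderm, which holds these keratins, stood at marker sums of at least 1804, and its part was not tested. Perp was higher in EpiLCs (1.23). Among 28 tested YAP and SRF targets and contractile genes 1 was higher (3.57%) and 4 were lower (14.3%), beside 11.0% and 11.4% over all genes. Ctgf was the higher member (1.31), and the lower ones were led by Myh9, non-muscle myosin IIA, at 52.2, 38.4 and 47.1 against 493, 479 and 479 (-3.38).

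The transcription factor p53 answers DNA damage and other stress by inducing genes of arrest, repair and cell death. Of 21 tested p53 targets 18 (85.7%) were higher in EpiLCs, beside 11.0% over all genes, a larger share than in any other list with at least 5 tested members. By limma none was called lower and 1 was below 0 at an unadjusted p under 0.05, with a median of 1.63 against 0.00 over all genes. Cdkn1a (p21), the cell cycle inhibitor, was at 69.4, 61.9 and 65.3 rescaled TPM in EpiLCs and 2.58, 2.26 and 2.58 in E5.5 (4.26 ± 0.10, adjusted p = 1.7e-08). Ccng1, cyclin G1, was at 223, 190 and 299 against 22.2, 19.4 and 19.4 (3.46). Mdm2, the ligase that limits p53, rose by 1.44 and the apoptosis effector Bax by 1.60. Pmaip1 (Noxa) was not called (0.60). In EpiSCs against E6.5 13 of the 21 were also higher, Cdkn1a by 4.01, and 1 was lower, Pmaip1 (-4.18). The G1 list shared Cdkn1a and had 4 of 22 higher (18.2%, beside 11.0% over all genes), among them Cdkn2a (2.54). By limma none of the G1 list was lower (6 below 0 at an unadjusted p under 0.05), and its cyclins and kinases were not called.

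Genes of cholesterol synthesis and uptake are switched on together by the transcription factor SREBP2 when cells lack sterol. Of 25 genes, all tested, 19 were higher in EpiLCs (76.0%, beside 11.0% over all genes). By limma none was lower at an adjusted or unadjusted p under 0.05, and the median was 1.60. Msmo1, a methylsterol oxidase, was at 295, 330 and 263 rescaled TPM in EpiLCs and 17.3, 17.0 and 16.0 in E5.5 (4.06 ± 0.12, adjusted p = 3.1e-08). Hmgcs1, which makes the HMG-CoA that enters the pathway, was at 467, 370 and 533 against 52.1, 55.2 and 51.7 (3.07). Fasn, of fatty acid synthesis, was not called (0.48). The 19 genes were higher in EpiSCs against E6.5 as well, where 22 of the 25 were called, and the difference of the differences was called for 1 gene of the list.

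**Figure D4:**
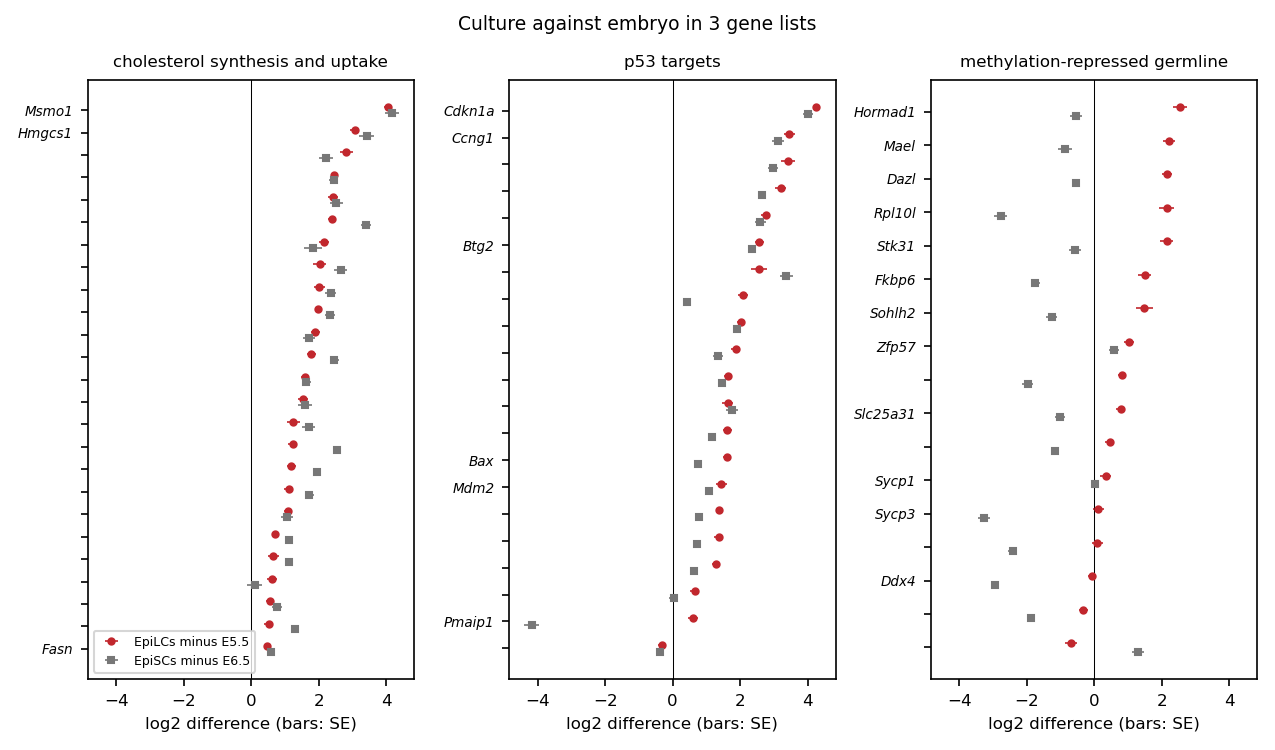
Log2 difference and its SE for each tested gene of 3 lists, EpiLCs minus E5.5 epiblasts (red circles, n = 3 libraries per group) and EpiSCs minus E6.5 epiblasts (grey squares, 9 and 3 libraries), with the genes named in the text labelled. The cholesterol genes lie right of 0 in both pairs, the p53 targets mostly so, and most germline genes lie right of 0 in EpiLCs and left of 0 in EpiSCs.

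Other stress programmes were mixed. Of 30 tested genes of the integrated stress response 12 were higher in EpiLCs (40.0%) and 1 lower (3.33%), beside 11.0% and 11.4% over all genes. Ddit4 (Redd1), an inhibitor of mTORC1, was at 66.7, 115 and 38.7 rescaled TPM in EpiLCs and 8.12, 5.75 and 7.12 in E5.5 (3.10), and Psat1, of serine synthesis, at 202, 271 and 172 against 40.5, 42.5 and 39.3 (2.34). The EpiLC libraries differed among themselves in this list, with replicate 2 above the others in both genes. The mRNA of Atf4, its translationally controlled regulator, was not called (0.07), and Cebpb was lower (-1.23, or -0.83 on TPM as deposited). Of 18 tested NRF2 and antioxidant genes 8 were higher (44.4%) and 1 lower (5.56%), beside the same shares over all genes. The quinone reductase Nqo1 was at 49.6, 63.9 and 49.2 against 1.50, 2.63 and 1.66 (4.25), and the metallothionein Mt1 was lower by 1.90. Of 21 tested chaperone genes 1 was higher (4.76%) and 2 lower (9.52%), beside 11.0% and 11.4% over all genes. Hspb1 was higher (1.65). Hspa1a (-2.80) and its near-identical neighbour Hspa1b were lower, so the separate levels of Hspa1a and Hspa1b are uncertain. Of 15 tested immediate early genes 5 were higher (33.3%, beside 11.0% over all genes), led by Btg2 (2.57), also a p53 target. The 2 lower ones (13.3%, beside 11.4% over all genes) were Jun (-1.89) and Fosb, whose 3 EpiLC libraries at 2.81, 0.0641 and 0.205 stood far apart.

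Of 24 tested glycolysis genes 3 were higher (12.5%) and 2 lower (8.33%), beside 11.0% and 11.4% over all genes, and Ldha was at 1815, 2332 and 1820 rescaled TPM in EpiLCs and 2153, 2066 and 2105 in E5.5, with overlap. Ldhb, the lactate dehydrogenase chain that favours pyruvate, was at 358, 431 and 446 against 64.1, 61.7 and 64.3 (2.68 ± 0.12). Pdk1, which closes pyruvate entry to mitochondria, was higher by 2.06, and Gapdh by 1.83, although the many pseudogenes of Gapdh make its level uncertain. Slc2a3, the glucose carrier GLUT3, was at 77.9, 106 and 58.1 against 321, 333 and 290 (-1.99). Of 16 tested hypoxia genes 4 were lower, among them P4ha1 (-2.10) and Vegfa (-1.53), and 1 higher, Pdk1. Vegfa ran the other way in EpiSCs against E6.5 (1.33). Of 73 tested genes of the respiratory chain and ATP synthase 13 were higher (17.8%) and 3 lower (4.11%), beside 11.0% and 11.4% over all genes. Cox6b2 (2.84) and Ndufs5 (-1.25) were at the ends of the list, and its median was 0.39. Of 73 tested cytosolic ribosomal protein genes 15 were higher (20.5%) and 4 lower (5.48%), beside the same shares over all genes. They ran from Rps2 (2.02) to Rpl22 (-1.45), and the 15 became 6 under quantile normalization. Ribosomal protein genes have many processed copies and short exons, and the 2712 genes with the shortest exons had a median of 0.26.

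Of 12 tested MHC class I genes 6 were higher (50.0%, beside 11.0% over all genes) and none lower by limma (2 below 0 at an unadjusted p under 0.05). H2-K1, a classical heavy chain, was at 72.0, 76.6 and 39.0 rescaled TPM in EpiLCs and 7.33, 7.37 and 6.85 in E5.5 (2.90), and B2m, the light chain, at 24.6, 23.6 and 17.5 against 10.1, 9.86 and 10.6 (1.02), a call lost without EpiLC replicate 1 (0.93) or 2 (0.96). The H2 genes are highly similar and differ between mouse strains, and whether the groups share a strain is not given, so these levels are uncertain. Of 23 tested imprinted genes 5 were higher (21.7%) and 6 lower (26.1%), beside 11.0% and 11.4% over all genes. Igf2, the fetal growth factor, was at 0.947, 0.0256 and 0.11 in EpiLCs and 32.4, 29.1 and 34.4 in E5.5 (-4.66), and it overlaps an annotated read-through gene on the same strand. Grb10, a growth-restraining adaptor, was at 13.2, 11.95 and 18.1 against 164, 167 and 169 (-3.46 ± 0.15). Dcn (3.39), also counted among the fibroblast markers, Slc38a4 (3.13), an amino acid carrier, and Impact (2.45), a translational regulator, were higher, and Mest was not called (0.89).

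Ranked over all genes, the 12 largest differences upward with a mean above 10 rescaled TPM, besides Dppa5a, Cdkn1a, Nqo1 and Msmo1, were a mixed set. Every gene of that mixed set had passed the TPM filter through the EpiLC libraries only, so these genes had to differ. Rpl39l, a retrocopy of Rpl39, was at 42.6, 105 and 151 in EpiLCs and at most 2.02 in E5.5 (5.17), and may share reads with its parent. Inpp5d (SHIP1), a lipid phosphatase known in blood and in ESCs, was at 48.5, 54.2 and 43.8 against 0.746, 0.953 and 1.16 (4.67). Gpx2, a glutathione peroxidase and NRF2 target, was at 25.4, 30.8 and 30.1 against at most 0.323 (4.61). The transcription factor genes Wt1, at 34.6, 55.0 and 77.7 against at most 1.89 (4.61), and Dmrt1, at 18.8, 28.0 and 31.3 against at most 0.611 (4.20), both act in gonad development. The other 3 were 2410141K09Rik (4.58) and Mup6 (4.11), both of families with near-identical members, and Gm20716, which is listed at 0 in the 3 E5.5 libraries and overlaps Adnp and Dpm1 on the same strand. The 12 largest downward were almost wholly visceral endoderm genes, namely Apoa1 (-8.59), Apob (-6.88), Ttr, Apoc2, Afp (-6.54), Apoa4, Spink1, Cubn (-6.19), Amn (-5.75) and Ctsh (-5.69), with Col4a2 and Cyp26a1. All of them but Col4a2 had passed the filter through the E5.5 libraries only, so they had to differ. Ttr, Apoc2, Apoa4 and Spink1 were listed at 0 in every EpiLC library. Cyp26a1, which degrades retinoic acid, was at 0.0371, 0 and 0.162 in EpiLCs and 105, 96.8 and 95.6 in E5.5 (-6.55).

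Among genes called both in EpiLCs against E5.5 and in the difference of the differences, that difference was largest upward in Dppa5a, Rpl39l, Dnmt3l, Dppa2, Rpl10l, 2410141K09Rik, Dppa4 and Zfp980. Zfp980, a zinc finger gene, was at 80.5, 80.9 and 120 rescaled TPM in EpiLCs and 4.90, 5.13 and 5.18 in E5.5 (3.94). Downward it was largest in Cer1, Fosb, Nr1h5, Pga5, Nefl, Slc39a8, Nefm and Cyp26a1. The reference pair gave the larger part in Fosb (-1.34 in EpiLCs against E5.5, 3.84 in EpiSCs against E6.5), Dnmt3l (2.62, -3.74), Rpl10l (2.15, -2.76) and Dppa4 (1.75, -3.14). It gave little in Cer1 (-5.04, 0.27), Nr1h5 (-4.95, 0.01) and 2410141K09Rik (4.58, -0.27). Nefl and Nefm, neurofilament chains, were lower in EpiLCs than in E5.5 by 2.38 and 2.02 and higher in EpiSCs than in E6.5 by 1.80 and 1.54. Slc39a8, a zinc and manganese importer, was at 2.14, 1.33 and 2.19 in EpiLCs and 16.6, 18.1 and 17.8 in E5.5 (-2.69). Nr1h5, a nuclear receptor, and Pga5, a pepsinogen, were listed at 0 in every EpiLC library. Like Cer1 and Cyp26a1, they had passed the filter through E5.5 only, and Rpl39l and 2410141K09Rik through EpiLCs only.

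**Figure D5:**
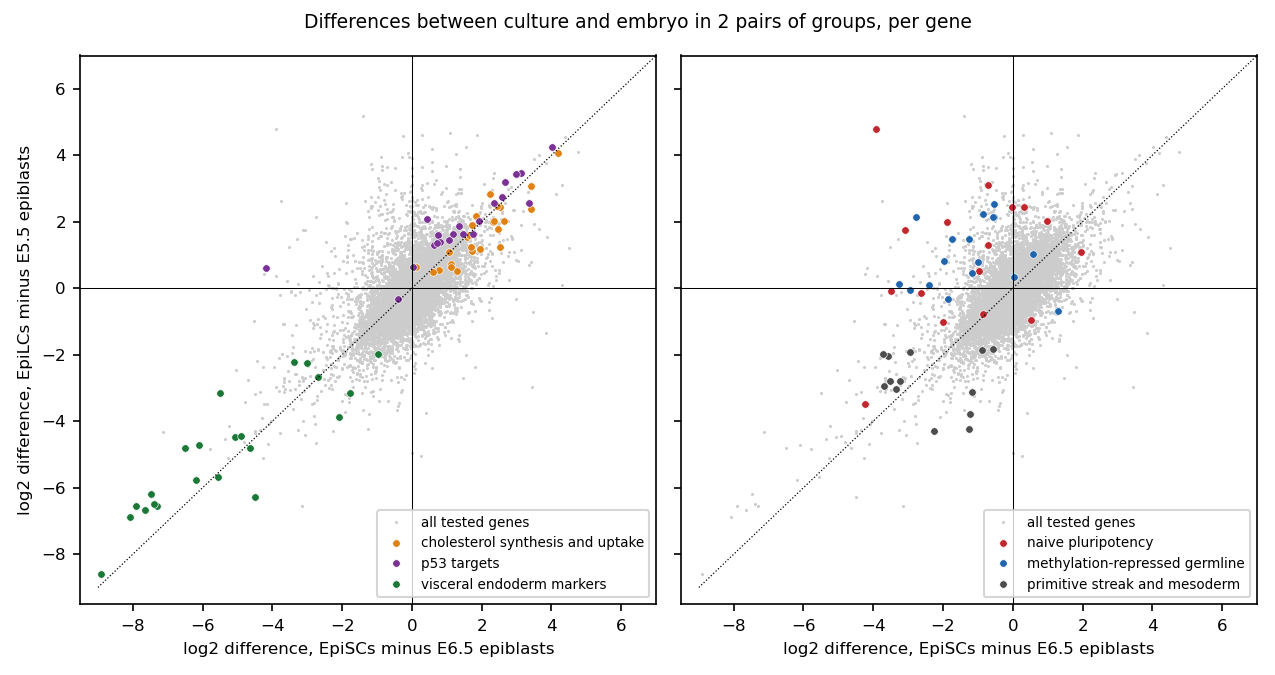
Log2 difference of EpiLCs minus E5.5 epiblasts (vertical) against EpiSCs minus E6.5 epiblasts (horizontal) for the 10844 genes tested (grey), with 3 gene lists coloured in each panel and a dotted line of equality. The cholesterol genes, most p53 targets and visceral endoderm markers follow the line, Pmaip1 apart (0.60 against -4.18), while most naive and germline genes lie above it, many with opposite signs in the 2 pairs.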

How the data were processed

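Bulk RNA-seq of 3 EpiLC and 3 E5.5 epiblast libraries was compared, with 9 EpiSC and 3 E6.5 libraries as a reference pair. Per the labels and the study's methods, reads were trimmed (cutadapt 2.4) and mapped to mm10 (STAR), and StringTie gave gene levels on a GENCODE annotation (biotypes and exon lengths were taken here from a later release), and the values the authors deposited are TPM, a length-scaled share of all transcripts that keeps no depth. Lines of the 12 identifiers on several lines were summed, and empty cells (56 lines) were taken as 0.

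Of 20774 autosomal protein-coding genes, 10909 exceeded 2 TPM in 3 or more of the 6 libraries, and 65 clustered histone or mitochondrial genes among them were left out. TPM were divided by median-of-ratios factors, and log2(TPM + 1) was fitted with limma 3.58.1 in R 4.3.3 (lmFit and eBayes, 2 groups). The reference pair and the difference of the differences came from a single fit of 18 libraries, EpiSC groups weighted equally. P-values were adjusted by Benjamini-Hochberg over all genes of a comparison, are two-sided, and measure the spread between these libraries. Fold changes are on the log2(TPM + 1) scale, which understates low genes. The procedure was tested on simulated data. X-linked genes were not analysed here, and 2 genes of the cholesterol list are not reported here.

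Gene lists and members were chosen with earlier results of these data known. Named genes are list members, the 12 largest changes each way among called genes without overlap and with a mean above 10, and the 8 largest differences of differences each way among genes called in both. Alternatives were TPM as deposited, quantile normalization, other pseudocounts and filters, an intensity trend, all 27 libraries in the fit, a replicate block, other reference groups, and each EpiLC, E5.5 or E6.5 replicate left out. Promoter windows came from RefSeq (GRCm38.p6).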

Additional observations from a re-analysis of the deposited data

Results flagged for a closer look

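The difference of EpiLCs from E5.5 epiblasts was tested against that of EpiSCs from E6.5 epiblasts in a single limma fit across all genes, and was called for 89 of the 172 genes named here, 48 upward and 41 downward. Over all genes it was called upward for 7.03% and downward for 6.27%. Some of the named genes were picked for large changes or large differences of differences, so their count is not a result. All values in these paragraphs are that difference of differences on the log2(rescaled TPM + 1) scale, and no explanation was tested.

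Among pluripotency genes it was upward for Dppa5a (8.71), Dppa2 (4.96), Dppa4 (4.91), Zfp42 (4.85), Gdf3 (4.79), Pecam1 (3.95), Gbx2 (3.89), Esrrb (3.43), Dppa3 (2.51), Fgf4 (2.49), Fbxo15 (2.20), Lefty2 (1.93), Pou3f1 (1.20) and Spry4 (1.11). It was downward for Klf4 (-1.45), Fgf5 (-1.06), Enpp3 (-1.54), Car14 (-2.76) and Egr1 (-2.32).

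Germline and DNA methylation genes were upward, namely Dnmt3l (6.39), Rpl10l (4.95), Dmrt1 (3.71), Sycp3 (3.42), Fkbp6 (3.27), Hormad1 (3.12), Mael (3.12), Ddx4 (2.90), Stk31 (2.79), Sohlh2 (2.78), Dazl (2.74), Slc25a31 (1.81), Dnmt3a (1.61) and Gadd45a (1.47).

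Of the other named signalling, streak and endoderm genes, it was downward for Cer1 (-5.40), Cyp26a1 (-3.50), Foxa2 (-3.21), Lhx1 (-3.05), Gsc (-2.62), Wls (-2.53), Bmp2 (-2.21), Eomes (-2.04), Fgf8 (-1.92), Sox17 (-1.83), Tcf7l2 (-1.49), Wnt3 (-1.29), Id1 (-1.25), Id3 (-1.12) and T (-1.001), with Sfrp4 upward (1.36). Among signalling genes given above, Gdf3, Lefty2, Fgf4 and Spry4 were upward, and Fgf5 and Egr1 downward. Over the 13 tested streak genes it was downward for 6 and upward for 2, with a median of 0.24. The visceral endoderm genes Dab2 (1.68), Apoc2 (1.28), Cubn (1.22) and Apob (1.11) were upward, being lower still in EpiSCs against E6.5, and Spink1 (-1.89) was downward. The nuclear receptor Nr1h5 (-5.05), not called in EpiSCs against E6.5, was downward as well.

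Among structural and stress genes it was downward for Krt8 (-2.43), Krt18 (-2.09), Dsp (-1.90), Myh9 (-1.35), Itgb5 (-1.27), Fosb (-5.22), Jun (-2.45) and Hspa1a (-1.10), and upward for Fn1 (2.48), Pmaip1 (4.80), Cdkn2a (3.35), Gpx2 (2.84), Nqo1 (2.75) and Hspb1 (1.57). Among metabolic and imprinted genes it was upward for Dcn (3.47), Ldhb (2.41) and Slc38a4 (1.11), and downward for Grb10 (-3.07), Vegfa (-2.84), Igf2 (-1.99), P4ha1 (-1.67), Cox6b2 (-1.25), Slc2a3 (-1.18) and B2m (-1.14).

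Of the other genes with large changes, Rpl39l (6.63), 2410141K09Rik (4.92), Zfp980 (4.87), Wt1 (4.38), Inpp5d (3.64) and Laptm5 (2.05) were upward, and Pga5 (-4.24), Nefl (-4.17), Slc39a8 (-4.17) and Nefm (-3.56) downward.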

How the results depend on the processing

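On TPM as deposited, the genes higher in EpiLCs rose from 1195 to 2513 and those lower fell from 1231 to 634, and in EpiSCs against E6.5 the counts became 2774 and 368. With a mean TPM above 10 over the 6 libraries as the filter, fewer genes were tested and 681 were higher and 692 lower. With genes of every biotype and chromosome past the filter, 2014 were lower. With E3.5, E4.5, E6.5 and E7.5 together as the reference stages, the difference of the differences was downward for 1174 genes in place of 680. The cause of these shifts was not tested, other than the change in genes tested or in scaling that each setting makes. Under the other settings every count stayed within 1.5 times its value. No gene called in the comparison of EpiLCs with E5.5 was called in the opposite direction under any setting.

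Leaving out 1 EpiLC or E5.5 replicate at a time gave 1115 to 1230 genes higher and 1147 to 1279 lower in EpiLCs. With 1 EpiLC, E5.5 or E6.5 replicate left out, the counts were 844 to 887 and 919 to 1036 in EpiSCs against E6.5. For the difference of the differences they were 735 to 791 and 637 to 754. No EpiSC replicate was left out, so the dependence on those libraries was not tested. Same-numbered EpiLC and E5.5 libraries did not deviate together (r of 0.01, -0.03 and -0.06), so they share a number only. With the replicate block 1198 genes were higher and 1231 lower, 846 and 950 in the reference pair, and 761 and 680 for the difference of the differences.

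Of 172 named genes, 18 changed their call on TPM as deposited (11 lost, 7 gained) and none under quantile normalization or the block. Depth is unknown, so a value of 0 sets no limit, and the difference by exon length and by kit bears on every level.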
